A study of Mus musculus with 6 samples.

Results

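The genes described here are the chemokine ligands and receptors measured in stromal cells of mouse bone marrow that had lost CXCL12. They were taken by symbol, as every entry of the count table named Ccl, Cxcl, Cx3cl, Xcl, Ccr, Cxcr, Cx3cr, Xcr or Ackr with a number, leaving out Cxcl12, whose gene was the one deleted. That gave 48 of 17128 genes, 30 ligands and 18 receptors. No entry carried an Ackr symbol, and the atypical receptor gene now called Ackr3 was present under its older symbol Cxcr7.

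Chemokines are small secreted proteins, some of them tethered to the cell surface, that steer cells along concentration gradients. They are named by the spacing of their first cysteines, as CC, CXC, CX3C and XC ligands, and act through G protein-coupled receptors named after the ligand class they bind. Atypical receptors bind chemokines without coupling to G proteins and clear or redistribute them. In bone marrow the best known pair is CXCL12, made by reticular stromal cells, and its receptor CXCR4 on blood-forming cells, while CXCR2 and CCR2 guide the exit of neutrophils and monocytes.

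RNA was sequenced from GFP+ cells sorted by flow cytometry out of collagenase-digested femurs at postnatal day 21. The CXCL12-deficient group (n = 3 libraries) was GFP+ tdTomato+ cells of mice that carried Col2a1-cre on top of Cxcl12(GFP/fl) and R26R(tdTomato/+). The control group (n = 3 libraries) was GFP+ cells of mice with Cxcl12(GFP/fl) and R26R(tdTomato/+) but no cre named, so every cell of either group carried GFP on one Cxcl12 allele. Col2a1-cre acts in cells that express Col2a1 or descend from such cells, and the sort, the cre transgene and the loss of the floxed allele cannot be told apart in this design. Nothing in the labels says that the libraries came from separate mice, so each p-value rests on library-to-library spread, which may be technical. Replicate numbers follow the order of deposit, name libraries only and pair none across the groups.

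Total counts were between 22865174 and 25155012 in CXCL12-deficient libraries and between 20133299 and 28009257 in control libraries. Levels are given as CPM, read counts scaled to library size with TMM factors, and 1 read was worth between 0.0357 and 0.0472 CPM. Cxcl12, summed over its 4 exon entries, had 1423, 1280 and 1163 CPM in CXCL12-deficient libraries and 3876, 3673 and 3694 CPM in controls (log2 fold change -1.54 ± 0.17 SE, adjusted p = 0.0053), with exon 2 at 26.3 ± 7.15 CPM in CXCL12-deficient and 385 ± 24.7 CPM in control libraries (SD). The labelled cell type carried its markers: Lepr, the leptin receptor gene of marrow reticular cells, had 1157, 810 and 1260 CPM in CXCL12-deficient libraries and 630, 688 and 637 CPM in controls. Markers of blood cells were present as well. The 9 measured genes of a leukocyte list, Ptprc (CD45) among them, summed to between 379 and 735 CPM in CXCL12-deficient libraries and between 1840 and 2908 CPM in controls, and all 9 fell. In bulk libraries fewer cells of a type and less RNA per cell cannot be told apart.

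The sequences shown are the 250 bases before the start of 6 members, from RefSeq on GRCm38.p6, each read on the strand of its gene. All 6 hold a match, and Cxcl1, Cxcl2, Cxcl9 and Cxcl10 among them were not called by edgeR. Capitals mark matches, on either strand, to short motifs: GGGANTTTC for NF-kB, GAAANNGAA for interferon regulatory factors (IRF), GAGGAAGT for PU.1 and TTGCNNAA for C/EBP. Among all 32851 such windows 0.94%, 7.13%, 2.44% and 9.56% held them, in that order of motifs. Cxcl14 (chr13:56296552-56296801, minus strand) was the only ligand gene that rose, and Ccr2 (chr9:124101933-124102182, plus strand) a receptor gene that fell. Cxcl1 (chr5:90890995-90891244) and Cxcl2 (chr5:90903649-90903898), both on the plus strand, are neighbours that differed in their values. Cxcl9 (chr5:92328080-92328329) and Cxcl10 (chr5:92348890-92349139), both on the minus strand, are the interferon-inducible neighbours.
Cxcl14: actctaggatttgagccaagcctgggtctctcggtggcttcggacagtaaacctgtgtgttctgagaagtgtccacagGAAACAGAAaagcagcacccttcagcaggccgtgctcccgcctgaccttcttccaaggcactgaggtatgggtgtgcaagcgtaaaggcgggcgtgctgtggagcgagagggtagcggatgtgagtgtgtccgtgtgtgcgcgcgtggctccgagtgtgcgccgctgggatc
Ccr2: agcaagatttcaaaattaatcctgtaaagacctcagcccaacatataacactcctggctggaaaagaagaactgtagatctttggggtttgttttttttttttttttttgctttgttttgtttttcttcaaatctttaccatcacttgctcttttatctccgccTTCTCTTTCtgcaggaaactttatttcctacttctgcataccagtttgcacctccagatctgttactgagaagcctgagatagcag
Cxcl1: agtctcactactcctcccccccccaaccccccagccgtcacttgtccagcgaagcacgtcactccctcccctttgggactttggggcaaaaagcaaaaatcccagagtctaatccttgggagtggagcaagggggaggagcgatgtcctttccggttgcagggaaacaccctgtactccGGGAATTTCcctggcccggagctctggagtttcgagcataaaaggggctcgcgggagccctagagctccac
Cxcl2: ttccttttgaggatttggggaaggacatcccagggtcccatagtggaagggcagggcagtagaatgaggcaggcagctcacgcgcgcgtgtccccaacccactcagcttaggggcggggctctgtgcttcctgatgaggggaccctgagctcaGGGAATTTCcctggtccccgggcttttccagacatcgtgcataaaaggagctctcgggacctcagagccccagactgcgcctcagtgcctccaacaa
Cxcl9: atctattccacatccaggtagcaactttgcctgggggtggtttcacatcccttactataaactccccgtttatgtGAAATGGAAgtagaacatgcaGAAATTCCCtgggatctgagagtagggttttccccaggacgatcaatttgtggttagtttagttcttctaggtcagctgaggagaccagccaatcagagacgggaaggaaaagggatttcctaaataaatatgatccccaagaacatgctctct
Cxcl10: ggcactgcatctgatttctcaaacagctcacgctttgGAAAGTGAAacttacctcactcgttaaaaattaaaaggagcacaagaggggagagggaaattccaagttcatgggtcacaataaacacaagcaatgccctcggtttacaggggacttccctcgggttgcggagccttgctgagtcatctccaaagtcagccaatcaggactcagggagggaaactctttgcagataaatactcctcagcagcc

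An NF-kB match began 71 bases before the start of Cxcl1, 97 bases before that of Cxcl2 and 154 bases before that of Cxcl9. IRF matches began 172 bases before the start of Cxcl14, 86 before that of Ccr2, 175 before that of Cxcl9 and 213 before that of Cxcl10. These starts are those of RefSeq, while the gene spans given below are those of GENCODE M21. GENCODE M21 starts Ccr2 at 124101950, so most of its window, the IRF match included, lies inside the gene by that annotation. RefSeq windows were matched for 36 of the 48 members. In these, 6 members held an NF-kB match (Cxcl1, Cxcl2, Cxcl3, Cxcl9, Cxcr2 and Ccr3), 6 an IRF match (Cxcl14, Cxcl9, Cxcl10, Ccl19, Ccl3 and Ccr2), 3 a C/EBP match and 1 a PU.1 match. The windows of the called members Ccl6, Ccr1 and Cxcr4, which are not shown, held 0 matches to these motifs. A match is a description of the letters, and binding was not measured.

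Of the 48 members, 33 passed the filter on low counts and were tested, 19 ligands and 14 receptors. Of these 33, 5 fell, the ligand gene Ccl6 and the receptor genes Ccr1, Ccr2, Cxcr2 and Cxcr4, and 1 rose, the ligand gene Cxcl14 (adjusted p below 0.05, edgeR). The share that fell was 15.2%, against 3.94% of all 13926 tested genes, and the share that rose was 3.03%, against 0.639% of all. DESeq2, a second count model, called 11 members lower and 2 higher, where it called 7.1% of all genes lower and 2.17% higher. A member could pass the filter through the group in which it was high, so these shares are descriptions.

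Ligands and receptors were placed differently. Of the 14 tested receptors 13 had a negative log2 fold change, with a median of -1.90, and of the 19 ligands 13 had a positive one, with a median of 0.20. The median of all tested genes was 0.03, and 47.4% of them were negative. The libraries of the groups did not overlap at 11 receptors and 6 ligands that were lower and at 4 ligands that were higher. Of all tested genes 13.9% were lower and 11.7% higher without overlap. Summed over all 18 receptors, levels were 51.4, 49.8 and 36.9 CPM in CXCL12-deficient libraries and 138, 162 and 211 CPM in controls. Summed over all 30 ligands they were 3124, 2874 and 2513 CPM in CXCL12-deficient libraries and 1722, 1735 and 1329 CPM in controls, and without Cxcl14 they were 722, 591 and 582 CPM in CXCL12-deficient libraries and 403, 604 and 462 CPM in controls, which overlapped.

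**Figure D1:**
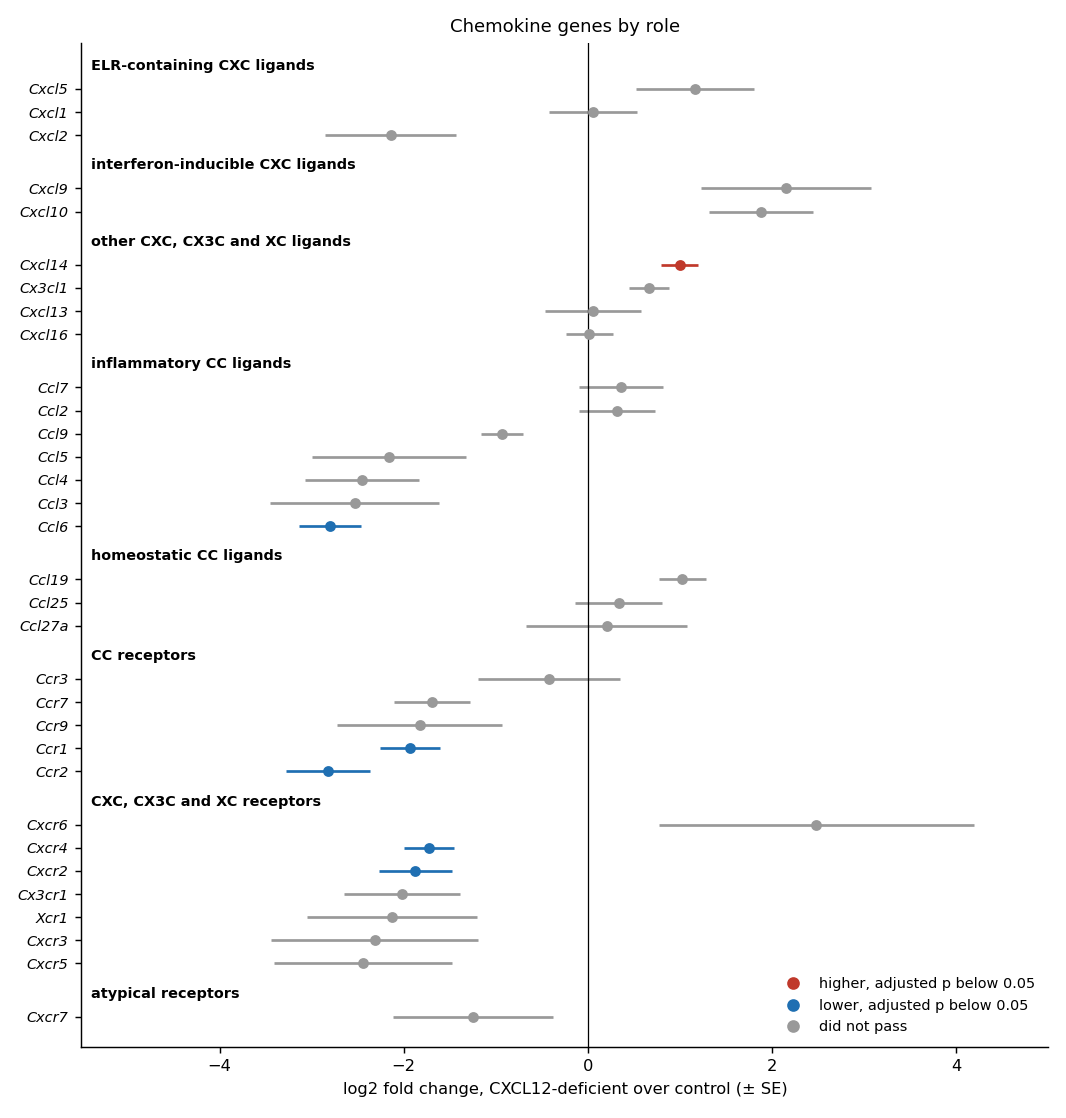
The log2 fold change of each of 32 tested chemokine genes, CXCL12-deficient over control, on the horizontal axis, with bars of ± SE, in groups by role. The receptors lie left of 0 except Cxcr6, 5 genes in blue were lower and Cxcl14 in red was higher at an adjusted p below 0.05.

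Cxcl14 was the most abundant member in every library and rose in CXCL12-deficient libraries. It encodes a CXC chemokine of epithelia and fibroblasts for which no single signalling receptor is settled, and lies on the minus strand of mouse chromosome 13, from 56288643 to 56296551 of GRCm38 in GENCODE M21. It had 2402, 2283 and 1932 CPM in CXCL12-deficient libraries and 1318, 1132 and 867 CPM in controls. The lowest CXCL12-deficient library lay above the highest control, and the fold was 1.99 (log2 fold change 0.996 ± 0.20 SE, adjusted p = 0.028). Leaving out control replicate 2 or 3 ended the call (adjusted p = 0.117 and 0.121), at log2 fold changes of 1.01 and 0.83. So did leaving out replicate 1 or 2 of the CXCL12-deficient group (adjusted p = 0.0645 and 0.0642). Calls over all tested genes fell too, from 548 lower and 89 higher to 154 and 6 without control replicate 2. Without control replicate 3 they were 74 and 0, so a call lost in these control refits is not particular to 1 gene. The loss of calls was smaller in the other refits. Calls numbered 456 lower and 37 higher without CXCL12-deficient replicate 1, and 412 and 76 without replicate 2 of that group.

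The ratio of Cxcl14 to Cxcl12 was higher in CXCL12-deficient libraries. It had to be, since Cxcl14 was higher and the deleted gene lower there, both without overlap. The log2 ratio of their CPM was 0.76, 0.83 and 0.73 in CXCL12-deficient libraries and -1.56, -1.70 and -2.09 in controls (exact permutation p = 0.1, two-sided, the smallest that 3 against 3 allows). The difference of 2.56 includes the deleted gene, so neither it nor its p is a further result. Since the ratio was not corrected for length, its sign does not say which gene was at the higher level. Markers of the labelled stromal cells were higher in sum: the 12 genes of a stromal list summed to between 11808 and 14048 CPM in CXCL12-deficient libraries and between 8610 and 10254 CPM in controls. All 12 had a positive log2 fold change and 2 rose (16.7%, against 0.639% of all tested genes). The groups overlapped at 9 of the 12. Relative to that sum, the log2 level of Cxcl14 was -2.30, -2.43 and -2.86 in CXCL12-deficient libraries and -2.96, -3.10 and -3.31 in controls, a difference of 0.60 without overlap (exact permutation p = 0.1, two-sided). Relative to Lepr alone the difference was 0.31 and the groups overlapped (exact permutation p = 0.5, two-sided). The part of the stromal markers in the rise of Cxcl14 was not tested further.

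Other ligands that stromal cells are known to make were higher in CXCL12-deficient libraries without passing the test. Ccl19, a ligand of CCR7, had 64.7, 41.9 and 42.9 CPM in CXCL12-deficient libraries and 22.1, 32.1 and 19.2 CPM in controls (log2 fold change 1.03 ± 0.26 SE, adjusted p = 0.0589). Its groups did not overlap, and DESeq2 called it (adjusted p = 0.00607). Cx3cl1, encoding the membrane-bound fractalkine, had 95.2, 105 and 158 CPM in CXCL12-deficient libraries and 64.2, 84.7 and 77.6 CPM in controls (0.66 ± 0.21, adjusted p = 0.134). These groups did not overlap either. Relative to the stromal list both overlapped: Ccl19 differed by 0.62 (exact permutation p = 0.2, two-sided) and Cx3cl1 by 0.22 (exact p = 0.6), and Ccl19 differed by 0.33 relative to Lepr alone (exact p = 0.3). Cxcl16, the other membrane-bound ligand, had 11.9, 13.1 and 13.7 CPM in CXCL12-deficient libraries and 15.5, 12.6 and 10.1 CPM in controls (log2 fold change 0.02 ± 0.25 SE), so the libraries lay close together. Ccl25, Ccl27a and Cxcl13, which guide lymphocytes in thymus, skin and follicles, had under 6 CPM in every library, overlapped between the groups and had log2 fold changes of 0.33 ± 0.47, 0.20 ± 0.87 and 0.05 ± 0.52 (SE).

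**Figure D2:**
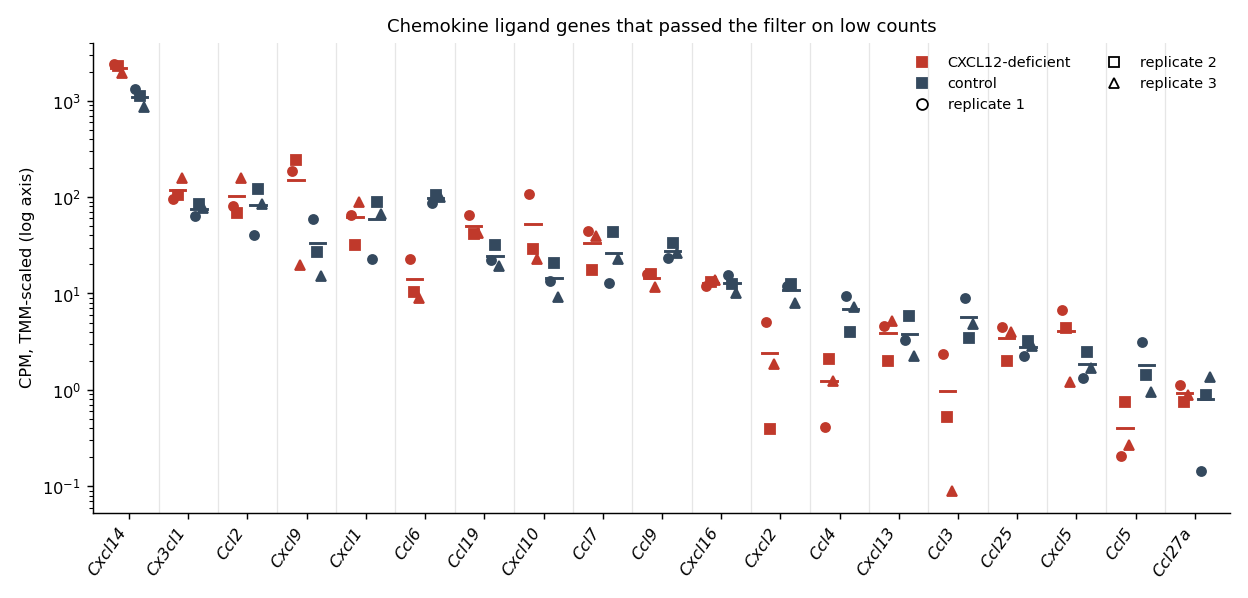
CPM on a log axis of the 19 tested ligand genes, ordered by mean level, with 1 point per library, its shape giving the replicate, and a line at the group mean. Cxcl14 stands above all others in each library, with 1932 to 2402 CPM in CXCL12-deficient libraries and 867 to 1318 CPM in controls, and Ccl6 is the ligand with the clearest gap in the other direction.

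The interferon-inducible ligands varied widely between libraries of the same group. Cxcl9 and Cxcl10 bind CXCR3, the receptor of activated T and NK cells, and lie within 44.1 kb of each other and of Cxcl11 on chromosome 5. Cxcl9 had 188, 243 and 19.9 CPM in CXCL12-deficient libraries and 59.1, 27.0 and 15.1 CPM in controls (log2 fold change 2.15 ± 0.93 SE, adjusted p = 0.28). CXCL12-deficient replicate 3 lay among the controls, and without that library the log2 fold change was 2.67 (adjusted p = 0.0237). Cxcl10 had 107, 28.9 and 22.8 CPM in CXCL12-deficient libraries and 13.4, 20.6 and 9.21 CPM in controls (1.88 ± 0.57 SE, adjusted p = 0.112). It shares exon bases with Art3 on the opposite strand, and reads of these genes cannot be told apart there. Its groups did not overlap, but 1 library held most of the difference, and without CXCL12-deficient replicate 1 the log2 fold change was 0.84. Cxcl11 had at most 3 reads in a library.

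The tested inflammatory CC ligands lie in 2 clusters on chromosome 11 and are given here by cluster. Ccl5, Ccl9, Ccl6, Ccl3 and Ccl4 lie in that order within 138.9 kb of chromosome 11, and encode inflammatory ligands made largely by myeloid and lymphoid cells. All 5 were lower without overlap between the groups, and 1 of them, Ccl6, passed the test. Ccl2 and Ccl7, ligands of CCR2, lie with Ccl12 and Ccl8 within another 81.2 kb of that chromosome, and the groups overlapped at both. The clusters were not compared by a test, and neighbours in a cluster are not independent observations.

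Of the 6 called members, Ccl6 alone passed whichever library was left out. It encodes a rodent CC chemokine of myeloid cells and lies on the minus strand of chromosome 11, from 83587882 to 83593087. It had 22.6, 10.3 and 9.01 CPM in CXCL12-deficient libraries and 87.5, 106 and 99.3 CPM in controls, which left 14.3% of the control mean (log2 fold change -2.80 ± 0.34 SE, adjusted p = 0.0055). Every control lay far above every CXCL12-deficient library, and the call was made in all 6 refits without a library, with log2 fold changes between -3.33 and -2.56. Ccl9, its neighbour, had 16.0, 15.7 and 11.6 CPM in CXCL12-deficient libraries and 23.5, 33.2 and 26.1 CPM in controls (-0.93 ± 0.23, adjusted p = 0.0556).

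Ccl3 and Ccl4, the macrophage inflammatory proteins, were at low levels. Ccl4 had 0.417, 2.09 and 1.24 CPM in CXCL12-deficient libraries and 9.42, 3.94 and 7.23 CPM in controls (log2 fold change -2.45 ± 0.62 SE, adjusted p = 0.0608). Ccl3 had 2.33, 0.523 and 0.0888 CPM in CXCL12-deficient libraries and 8.96, 3.41 and 4.77 CPM in controls (-2.53 ± 0.92, adjusted p = 0.173), and passed only without CXCL12-deficient replicate 1 (-4.20, adjusted p = 0.0387). Ccl5, a T cell and platelet chemokine, had 0.208, 0.741 and 0.266 CPM in CXCL12-deficient libraries and 3.11, 1.42 and 0.945 CPM in controls. DESeq2 called Ccl3, Ccl4 and Ccl9 lower and not Ccl5.

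Ccl2, Ccl7 and Cxcl1, induced in many cell types by inflammatory signals, differed more within groups than between them. Ccl2, the main ligand of CCR2, had 80.1, 68.2 and 158 CPM in CXCL12-deficient libraries and 40.6, 121 and 84.3 CPM in controls (log2 fold change 0.32 ± 0.41 SE). Ccl7 had 44.1, 17.6 and 39.2 CPM in CXCL12-deficient libraries and 12.8, 43.2 and 22.8 CPM in controls (0.36 ± 0.45). Cxcl1, a neutrophil attractant that binds CXCR2, had 64.7, 32.0 and 89.7 CPM in CXCL12-deficient libraries and 23.0, 88.9 and 67.5 CPM in controls (0.06 ± 0.48). At all 3 genes the lowest control was replicate 1 and the lowest CXCL12-deficient library was replicate 2.

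The other ligand genes clustered with Cxcl1 were not alike. Cxcl2 lies next to Cxcl1 in a cluster of 146.6 kb on chromosome 5, and had 5.04, 0.393 and 1.86 CPM in CXCL12-deficient libraries and 11.9, 12.5 and 7.94 CPM in controls (log2 fold change -2.14 ± 0.71 SE, adjusted p = 0.142). Its groups did not overlap, and it passed without CXCL12-deficient replicate 1 (-3.25, adjusted p = 0.038). Cxcl5 had 6.71, 4.40 and 1.20 CPM in CXCL12-deficient libraries and 1.32, 2.48 and 1.70 CPM in controls (1.16 ± 0.64), which overlapped. Cxcl3 and Cxcl15 had at most 9 and 11 reads in a library and were not tested.

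**Figure D3:**
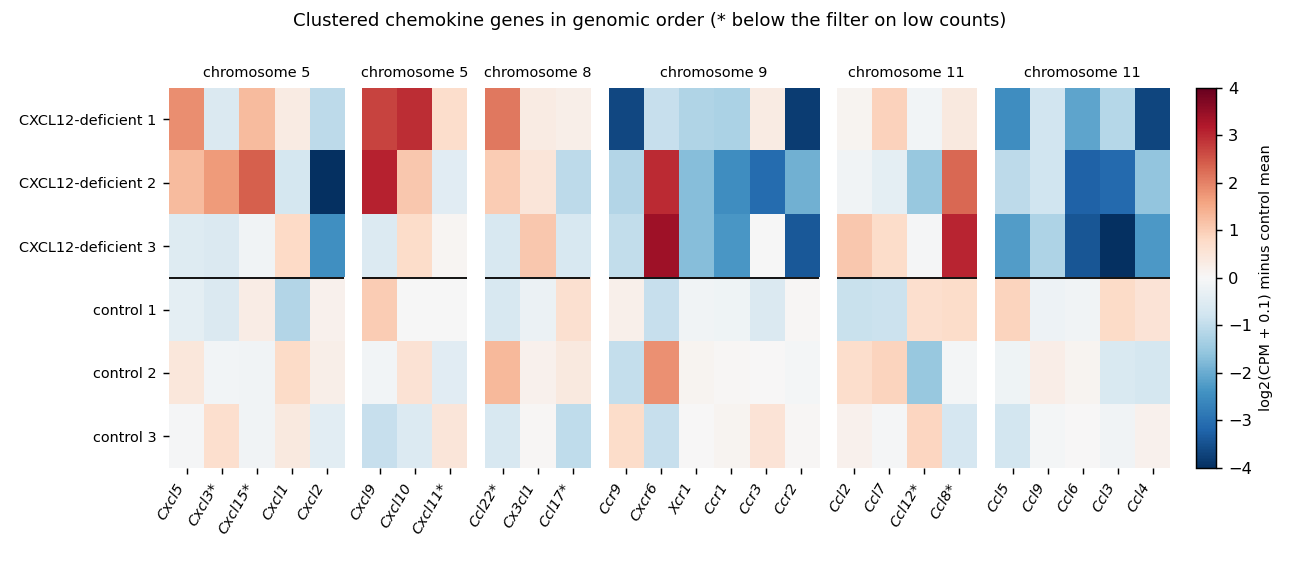
Chemokine genes of the 6 genomic clusters with 3 or more members, in genomic order, with 1 row per library and colour for log2(CPM + 0.1) minus the control mean (colours end at -4 and 4). Asterisks mark genes below the filter on low counts. The chromosome 11 cluster of Ccl5, Ccl9, Ccl6, Ccl3 and Ccl4 is blue in all 3 CXCL12-deficient rows, the cluster of Ccl2 and Ccl7 is mixed, and most receptors on chromosome 9 are blue.

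Of the 14 tested receptor genes 4 fell, and the leukocyte genes given above fell as well. Blood cells are known to carry most of these receptors. Cxcr4, the signalling receptor of CXCL12, lies on the minus strand of chromosome 1, from 128588199 to 128592293. It had 7.08, 5.89 and 4.93 CPM in CXCL12-deficient libraries and 16.0, 19.1 and 24.0 CPM in controls (log2 fold change -1.72 ± 0.27 SE, adjusted p = 0.0121). Without control replicate 2 or 3 the adjusted p was 0.0539 and 0.0677. Cxcr7, now Ackr3, the atypical receptor that takes up CXCL12, had 1.75, 0.611 and 0.178 CPM in CXCL12-deficient libraries and 3.39, 1.42 and 1.23 CPM in controls (-1.25 ± 0.87, adjusted p = 0.501), which overlapped.

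Ccr2 showed the steepest fall of the called receptors. It marks monocytes released from the marrow, and spans 124101950 to 124113557 of chromosome 9 (plus strand). Its levels were 2.21, 8.29 and 2.97 CPM in CXCL12-deficient libraries and 32.9, 30.0 and 32.6 CPM in controls, or 14.1% of the control mean (log2 fold change -2.83 ± 0.46 SE, adjusted p = 0.0129). Controls lay close together and CXCL12-deficient replicate 2 was the highest of its group. The call was lost only without control replicate 3 (adjusted p = 0.0602). Ccr1, a receptor of neutrophils and monocytes 133.3 kb away on the minus strand (123962124 to 123968692), had 16.1, 6.93 and 7.68 CPM in CXCL12-deficient libraries and 34.9, 40.2 and 42.0 CPM in controls (-1.93 ± 0.33, adjusted p = 0.0152). Without control replicate 2 or 3 its adjusted p was 0.0606 and 0.0683.

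Cxcr2, the receptor through which neutrophils answer Cxcl1 and Cxcl2, spans 74153989 to 74161246 of chromosome 1 (plus strand). It had 7.25, 8.59 and 2.84 CPM in CXCL12-deficient libraries and 21.1, 19.1 and 28.4 CPM in controls (log2 fold change -1.88 ± 0.39 SE, adjusted p = 0.0317). This was the least stable receptor call: it was lost without control replicate 1, 2 or 3 (adjusted p = 0.0568, 0.0846 and 0.151) and without CXCL12-deficient replicate 1 (0.0688). Ccr7, the lymphocyte and dendritic cell receptor of Ccl19, had 7.75, 14.1 and 7.86 CPM in CXCL12-deficient libraries and 16.6, 29.4 and 49.9 CPM in controls (-1.69 ± 0.41, adjusted p = 0.0536). The groups did not overlap, and Ccr7 passed without control replicate 1 (-2.02, adjusted p = 0.0248) and by DESeq2 (adjusted p = 0.000876).

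Other tested receptors had means under 6 CPM in either group. Cx3cr1, of monocytes and macrophages, had 2.12, 0.523 and 1.64 CPM in CXCL12-deficient libraries and 3.21, 4.80 and 9.50 CPM in controls (log2 fold change -2.02 ± 0.63 SE, adjusted p = 0.121), and DESeq2 called it (adjusted p = 0.0207). Cxcr5, the B cell receptor of Cxcl13, had 2.04, 0.0436 and 1.15 CPM in CXCL12-deficient libraries and 2.14, 5.69 and 9.92 CPM in controls (-2.44 ± 0.97). Neither group pair overlapped, though at Cxcr5 the highest CXCL12-deficient and lowest control values nearly met. Ccr9, Cxcr3 and Xcr1 had log2 fold changes of -1.83 ± 0.89, -2.31 ± 1.13 and -2.12 ± 0.92 (SE), none called, and no overlap. Ccr3, the eosinophil receptor, had 4.67, 0.349 and 3.60 CPM in CXCL12-deficient libraries and 2.43, 3.70 and 5.43 CPM in controls (-0.42 ± 0.77), which overlapped. Cxcr6, the receptor of Cxcl16, had 0, 32 and 42 reads in CXCL12-deficient libraries and 0, 14 and 0 in controls (2.48 ± 1.71, adjusted p = 0.494).

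**Figure D4:**
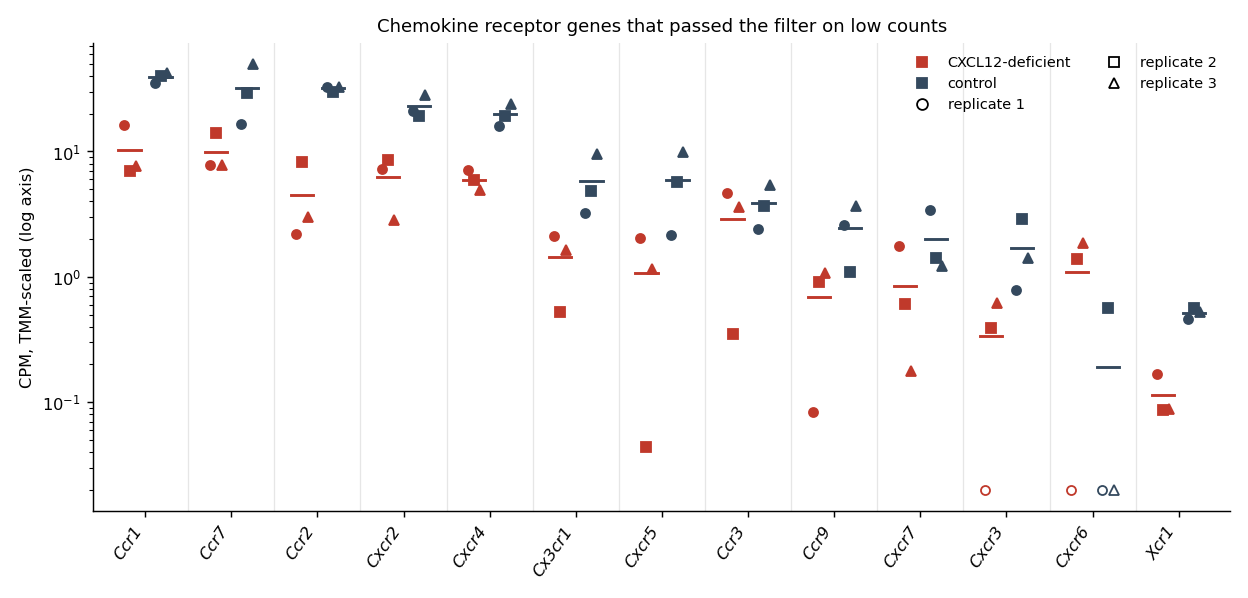
CPM on a log axis of 13 tested receptor genes, ordered by mean level, with 1 point per library, its shape giving the replicate, and a line at the group mean; open symbols at the foot are libraries with 0 reads. The CXCL12-deficient points of Ccr1, Ccr7, Ccr2, Cxcr2 and Cxcr4 all lie under the control points, while Ccr3, Cxcr7 and Cxcr6 overlap.

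For 6 receptor genes the level was also set against the leukocyte list of the same library. The log2 level of Ccr1 relative to that sum was -5.51, -6.45 and -5.63 in CXCL12-deficient libraries and -5.72, -5.88 and -6.11 in controls, a difference of 0.04 (exact permutation p = 0.9, two-sided). Cxcr2 differed by 0.07 (exact p = 0.9), Ccr7 by 0.47 (exact p = 0.3) and Cx3cr1 by -0.03 (exact p = 1), and all 3 overlapped. Cxcr4 was higher relative to the list, at -6.70, -6.69 and -6.27 in CXCL12-deficient libraries and -6.84, -6.95 and -6.92 in controls, a difference of 0.35 without overlap (exact permutation p = 0.1, two-sided). Ccl6 was lower relative to the list, at -5.02, -5.88 and -5.39 in CXCL12-deficient libraries and -4.39, -4.49 and -4.87 in controls, a difference of -0.85 without overlap (exact permutation p = 0.1, two-sided). Ccr2 differed by -0.99 and overlapped (exact p = 0.3), with CXCL12-deficient replicate 1 at -8.38 and the other two of its group at -6.19 and -6.99. Ccl4 differed by -0.58 (exact p = 0.7). These ratios and those of the stromal ligands, 15 in all, were chosen after the data were seen, and the smallest p after Benjamini-Hochberg adjustment over the 15 was 0.375.

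**Figure D5:**
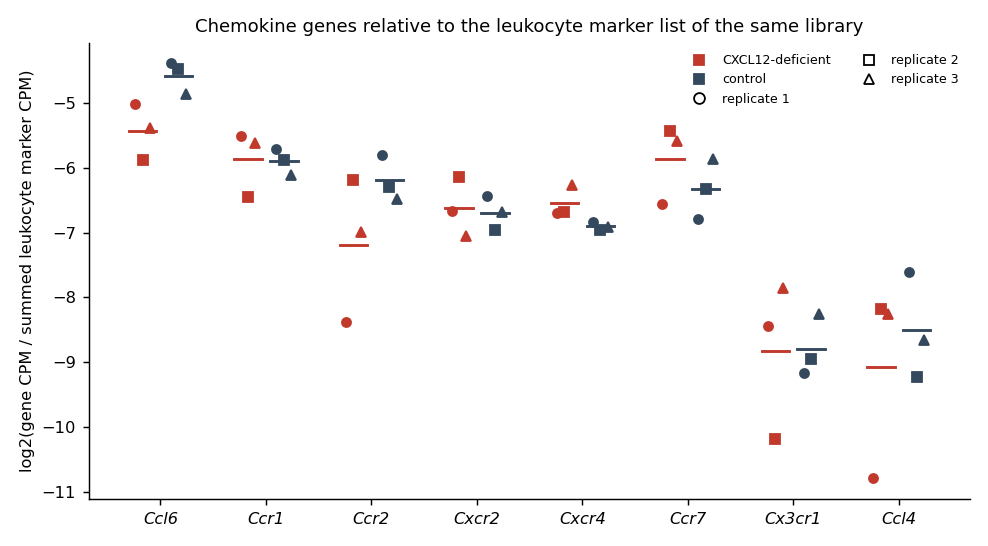
The log2 ratio of gene CPM to the summed CPM of the 9 leukocyte genes in the same library, with 1 point per library, its shape giving the replicate, and a line at the group mean. CXCL12-deficient and control points overlap for Ccr1, Ccr2, Cxcr2, Ccr7, Cx3cr1 and Ccl4, and lie apart for Ccl6 and Cxcr4.

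The lists of single blood lineages differed in how many of their genes fell, where 3.94% of all tested genes did. Of 14 neutrophil genes 13 fell, and their sum ran from 2926 to 7154 CPM in CXCL12-deficient libraries and from 15430 to 21291 CPM in controls. Of 15 monocyte and macrophage genes 5 fell, with a sum of 2359 to 3983 CPM in CXCL12-deficient libraries and 3925 to 5772 CPM in controls, which overlapped and include Vcam1, a gene that reticular cells also express. In that list 8 of 15 genes had a positive log2 fold change, 3 of them with an unadjusted p below 0.05, and the median was 0.04. The B lineage list, where 3 of 10 fell, summed to 513 to 545 CPM in CXCL12-deficient libraries and 629 to 1213 CPM in controls. Its genes did not all move alike: 9 had a negative log2 fold change, and 1 was higher without overlap. The median was -1.87, which the sum does not show. The T and NK cell list, where 2 of 9 tested genes fell, summed to 8.04 to 25.0 CPM in CXCL12-deficient libraries and 51.4 to 90.6 CPM in controls. In the smaller lists 2 of 7 basophil, mast cell and eosinophil genes, 1 of 7 dendritic cell genes, 6 of 8 megakaryocyte genes and 5 of 11 endothelial genes fell. Among erythroid and osteoblast genes edgeR called none, nor did DESeq2 or limma-voom, and 0 of these 15 had an unadjusted p below 0.05. The defining genes Csf1r (monocytes), Mpo (neutrophil precursors) and Cd79a (B lineage) averaged 18.7, 539 and 50.7 CPM in CXCL12-deficient libraries and 63.4, 3040 and 183 CPM in controls. In which cells each receptor was expressed was not tested.

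Levels can be set between genes only per length, here as CPM per kb of GENCODE M21 exons. On that scale the mean level of Cxcl14 was 1207 in CXCL12-deficient libraries and 605 in controls. The next ligands in CXCL12-deficient libraries were Ccl2 at 89.7, Ccl19 at 57.5, Cxcl9 at 49.8 and Ccl7 at 42.0 CPM per kb. The same ligands had 72.0, 28.2, 11.2 and 32.8 CPM per kb in controls, where Ccl6 with 54.3 stood above all of these but Ccl2. Ccl6 was at 7.79 CPM per kb in CXCL12-deficient libraries. The receptors with the highest mean were Ccr7, Ccr1, Cxcr4 and Cxcr2, at 5.0, 3.62, 3.30 and 2.04 CPM per kb in CXCL12-deficient libraries and 16.2, 13.8, 10.9 and 7.51 CPM per kb in controls. Given the spread of Cxcl9, Ccl2 and Ccl7 between libraries, neighbours in these orders below Cxcl14 overlapped or were not compared.

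The called receptors can be set beside their ligands. Cxcr2 fell while its ligand Cxcl1 had 62.1 ± 28.9 CPM in CXCL12-deficient and 59.8 ± 33.6 CPM in control libraries (SD, n = 3 each). Of the further CXCR2 ligands given above, Cxcl2 was not called by edgeR (log2 fold change -2.14), but DESeq2 called it lower (adjusted p = 0.0176). Cxcl5 had a positive log2 fold change (1.16 ± 0.64 SE) and was called by neither. Ccr2 fell while Ccl2 had 102 ± 48.8 CPM in CXCL12-deficient and 81.9 ± 40.2 CPM in control libraries. Ccr1 fell together with Ccl6, a ligand of CCR1 in mice. Of the other inflammatory CC ligands, Ccl3, Ccl4, Ccl5 and Ccl9 were lower but not called by edgeR. DESeq2 called Ccl3, Ccl4 and Ccl9 lower, and Ccl7 had a log2 fold change of 0.36 ± 0.45 SE. Cxcr4 fell beside its deleted ligand, though relative to the leukocyte list it was higher by 0.35 (exact permutation p = 0.1, two-sided). Whether receptors and ligands moved together was not tested.

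The 15 members that did not pass the filter were 11 ligands (Ccl8, Ccl12, Ccl17, Ccl20, Ccl22, Ccl24, Ccl28, Cxcl3, Cxcl11, Cxcl15 and Xcl1) and 4 receptors (Ccr4, Ccr6, Ccr8 and Ccr10). They had between 2 (Ccr8) and 82 (Ccl8) reads over all 6 libraries and at most 41 in any library. Ccl8 had 5, 24 and 41 reads in CXCL12-deficient libraries and 8, 3 and 1 in controls. Ccl20, Ccr6 and Ccr8 had no read in CXCL12-deficient libraries, where a count of 0 allows up to 3 reads, or between 0.125 and 0.133 CPM per library. Such limits cover counting error only. With no filter beyond 1 read all 48 members were tested, and none of these 15 was called by edgeR. Over all 48, 13 lower and 5 higher ones then had an unadjusted p below 0.05. In the reported comparison, with its filter, 1577 of all 13926 tested genes were lower and 1057 higher at that p.

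Other chemokine genes lie outside the symbol rule. Pf4 and Ppbp, the platelet chemokines also known as CXCL4 and CXCL7, fell with the megakaryocyte list: Pf4 had 2.29, 1.09 and 2.26 CPM in CXCL12-deficient libraries and 34.9, 79.5 and 20.9 CPM in controls (log2 fold change -4.58 ± 0.54 SE, adjusted p = 0.0055), and Ppbp had 0.916, 0.611 and 0.40 CPM in CXCL12-deficient libraries and 15.5, 81.7 and 20.4 CPM in controls (-5.91 ± 0.74, adjusted p = 0.0057, and 0.113 by limma-voom). Cd74, the invariant chain that also binds the cytokine MIF, fell by 1.91 on the log2 scale (adjusted p = 0.024), and lost its call when control replicate 2 or 3 was left out (adjusted p = 0.0645 and 0.0849), or replicate 2 or 3 of the CXCL12-deficient group (adjusted p = 0.0675 and 0.0647). These were 3 of 9 tested genes in a list of 11 (33.3%, against 3.94% of all tested genes), and Pf4 and Ppbp are also part of the megakaryocyte list. Ccrl1, now Ackr4, is an atypical receptor that scavenges Ccl19, Ccl21 and Ccl25, and was named after its values were seen. In CPM, which are not corrected for length, it was above every member receptor. It had 300.2, 225 and 233 CPM in CXCL12-deficient libraries and 200.3, 166 and 143 CPM in controls (0.57 ± 0.18, adjusted p = 0.127). Its groups did not overlap, and it shares exon bases with Acad11 on the opposite strand.

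Some genes that act below the receptors fell. Of 32 genes of chemokine receptor signalling 11 fell (34.4%, against 3.94% of all tested genes). The log2 fold change was negative at 30, with a median of -0.88, while the groups overlapped at 12. Dock2, a guanine exchange factor for Rac in leukocyte migration, averaged 4.08 CPM in CXCL12-deficient and 26.2 CPM in control libraries (-2.68 ± 0.42, adjusted p = 0.0116). Pik3cg, the phosphoinositide 3-kinase driven by G proteins, had a log2 fold change of -2.58 ± 0.53 SE, and Rgs18 and Rgs14, which end G protein signals, -2.42 ± 0.43 and -2.25 ± 0.28 (adjusted p = 0.0299, 0.0175 and 0.0057). Without control replicate 3 only Rgs14 of these 4 passed, while Dock2, Pik3cg and Rgs18 had adjusted p = 0.0609, 0.147 and 0.0682. Without control replicate 2 Pik3cg and Rgs18 had 0.0968 and 0.0734, and Pik3cg had 0.0832 and 0.0746 without CXCL12-deficient replicates 1 and 3. Dock2 and Pik3cg are known mainly from blood cells, and both moved with the leukocyte list; its part in their fall was not tested.

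Of 16 proteases and carriers of chemokines 5 fell (31.2%, against 3.94% of all tested genes), 4 of them neutrophil proteases. Those 4 also belong to the neutrophil list above and are counted there as well. These were Mmp8, Elane, Ctsg and Prtn3, Prtn3 being named after its values were seen, and the first 3 had log2 fold changes of -2.53, -2.21 and -1.94 (adjusted p = 0.0188, 0.0080 and 0.0347). Dpp4, which cleaves the end of CXCL12 and other chemokines, averaged 4.40 CPM in CXCL12-deficient and 25.2 CPM in control libraries (-2.52 ± 0.51, adjusted p = 0.0282). Elane was called without any 1 library, while Mmp8 and Ctsg passed in 3 of the 6 refits and Dpp4 in 2. The lowest and highest adjusted p in those refits were 0.0107 and 0.0799 for Mmp8, 0.0336 and 0.126 for Ctsg, and 0.0201 and 0.129 for Dpp4. Of 22 regulators of chemokine transcription none was called by edgeR. At an unadjusted p below 0.05, 2 were lower and 5 higher, against 1577 and 1057 of all 13926 tested genes. DESeq2 called 2 of these regulators higher and limma-voom 1 lower. Cebpb and Cebpd, the most abundant, averaged 1697 and 1047 CPM in CXCL12-deficient and 1545 and 859 CPM in control libraries (adjusted p = 0.774 and 0.411).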

How the data were processed

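Raw counts per gene, as the authors deposited them, were used for all 6 libraries. Per the submitters' processing notes, which give no roles, HTSeq, TopHat2 2.0.13 and Bowtie2 2.2.1 were used with mm10. Neither annotation nor strand setting is given in the sources used here. Members that share bases with another gene in GENCODE M21 (Cxcl10, Cxcl11, Cxcl16, Ccl25, Ccl27a, Xcl1, Ccr9, Cxcr5 and Cx3cr1) are therefore uncertain. The 4 Cxcl12 exon entries among 17131 were summed to 1 gene. edgeR 4.0.16 in R 4.3.3 kept 13926 genes (filterByExpr, minimum count 10, total 15) and compared CXCL12-deficient with control libraries by the robust quasi-likelihood F-test with TMM factors and Benjamini-Hochberg adjustment over all tested genes (threshold 0.05). SE came from the F statistic. Ratios used exact two-sided permutation of the libraries.

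Members, lists and tests were chosen with earlier results of these data known. Named were all called members, the 10 most abundant uncalled ones and all tested receptors, with up to 4 called genes of each pathway list or, with none called, its 2 most abundant; other members are named so that they are accounted for, except 1 tested receptor gene, which is in the counts and sums but is not reported here. Alternatives were DESeq2 1.42.0 and limma-voom (limma 3.58.1), DESeq2 and upper quartile factors, other filters, no robust shrinkage, a threshold of 0.01 and leaving out each library. In simulated counts for 13655 genes, edgeR found 38.8% of the 2-fold and 81.6% of the 4-fold changes, with 8 false among 116 calls. Coordinates and exon lengths come from GENCODE M21 (GRCm38).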

Additional observations from a re-analysis of the deposited data

How the results depend on the processing

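The members called lower numbered 11 by DESeq2 and 1 (Ccl6) at an adjusted p below 0.01, against 5 in the reported comparison, 7 with a filter of 5 CPM in 3 libraries (Ccl9 and Ccr7 added), 6 with no filter (Ccr7 added), and between 1 and 6 when 1 library was left out. The members called higher numbered 2 by DESeq2, 2 with a filter of 5 CPM in 3 libraries and 0 at an adjusted p below 0.01, against 1, and between 0 and 2 when 1 library was left out. Without control replicate 3 edgeR called 1 member lower and 0 higher, with 11 lower and 4 higher at an unadjusted p below 0.05, and without control replicate 2 it called 2 lower and 0 higher, with 11 and 5. It also called 0 higher without CXCL12-deficient replicate 1 or 2, with 5 and 4 at an unadjusted p below 0.05, and 2 (Cxcl14 and Cxcl9) without CXCL12-deficient replicate 3. Over all tested genes edgeR called 74 lower and 0 higher without control replicate 3 and 154 and 6 without control replicate 2, against 548 and 89. In the reported comparison 14 of the 33 tested members were lower and 4 higher at an unadjusted p below 0.05. Of all 13926 tested genes 1577 were lower and 1057 higher at that p. By limma-voom 5 members were called lower and 1 higher. Scaling by DESeq2 or upper quartile factors and the fit without robust shrinkage called the 5 and 1 genes reported. With 1 library left out, log2 fold changes near 0 changed sign: they ran from -0.14 to 0.71 for Ccl2, -0.35 to 0.46 for Cxcl1, -0.23 to 0.50 for Cxcl13, -0.14 to 0.16 for Cxcl16 (-0.013 with the filter of 5 CPM), -0.32 to 0.81 for Ccl27a and -0.96 to 0.10 for Ccr3. Relative to the leukocyte list, a scale chosen after the data were seen, the differences of Ccr1, Cxcr2 and Cxcr4 were positive (0.042, 0.070 and 0.35), since that list was itself lower. The cause of the other changes was not tested. No paired analysis was possible because the labels give no replicate numbers, and those used here are names in order of deposit. With 3 libraries per group and the depth and spread of these libraries, the simulated 2-fold changes were mostly missed.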
